A study of Mus musculus with 14 samples.

Results

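The comparison set tissue labelled as the microenvironment of AB1 tumours 14 days after inoculation against control tissue, 5 arrays against 3. These 8 arrays were chosen by their labels from a series of 14, whose other 6 were tumour microenvironment at day 4. AB1 is a mouse mesothelioma cell line. All animals were BALB/C mice aged 8 weeks per the labels, and the control samples carried no tumour label. The labels name neither the organ or site of the control tissue nor the route of inoculation, and they do not say whether the samples held tumour cells. They also do not say that replicates came from separate animals, so the p-values below reflect how these samples scatter, a scatter that may in part be technical. Each sample was total RNA, labelled with biotin as cRNA and hybridised to a 1-colour Illumina bead array.

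Of 45281 probes, 12775 (28.2%) were tested, those with a detection p-value under 0.05 on at least 3 of the 8 arrays. Just inside that limit lay 1654 probes detected on exactly 3 arrays, with median levels of 4.47 in control and 4.51 at day 14, and just outside it 2289 probes detected on 2, with medians of 4.41 and 4.44. A gene symbol was at hand for 6083 of the tested probes, which covered 5033 genes. Each gene is given below by its brightest tested probe. Of 903 genes with 2 or more tested probes, 242 had another probe whose change was of opposite sign. The term called marks an adjusted p under 0.05 in limma's test, and higher or lower the side on which day 14 lay. Levels are normalized log2 intensities with their SD, and changes are day 14 minus control on the log2 scale with their SE. Levels of different probes are not set against each other.

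Tissue around a growing tumour holds stromal, vascular and immune cells beside what remains of the normal tissue. Interferon gamma from T and NK cells induces chemokines, guanylate-binding proteins, immunity-related GTPases and the machinery that presents antigen on MHC molecules. Surface epithelium is marked by keratins, cell-junction proteins and cornified envelope proteins, and white fat by adipokines and by enzymes that make, store and release lipid.

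At day 14, 1835 of the 12775 probes were called, or 14.4%. Of these, 812 (6.36% of tested probes) were higher and 1023 (8.01%) were lower. Counted by gene, 962 of 5033 (19.1%) were called, 469 (9.32%) higher and 493 (9.8%) lower. The median change over all genes was 0.02. Day 14 and control arrays did not overlap for 1337 genes (26.6%). The 10 largest named rises and the 10 largest named falls were picked among such genes, so for them the choice fixed the lack of overlap. Among tested probes rises reached further than falls, with 51 called higher by at least 4-fold against 18 called lower by as much. The detection limit admits such rises more easily. A probe seen only in control had to be detected on every control array, while a probe seen only at day 14 could be missed on some day 14 arrays. How much of the difference in counts came from this limit was not tested. With median scaling in place of quantile normalization, 210 probes were called and 77.6% of them were higher, against 44.3% in the chosen setting. In that setting 6 of 7 interferon-inducible GTPase genes were still called, but none of 9 keratinocyte markers, 5 class II genes, 14 H2 genes, 4 adipocyte markers, 6 fatty acid genes and 8 glycolysis genes. The medians of these groups kept their sign, for example -1.37 for keratinocyte markers and 1.29 for H2 genes.

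**Figure D1:**
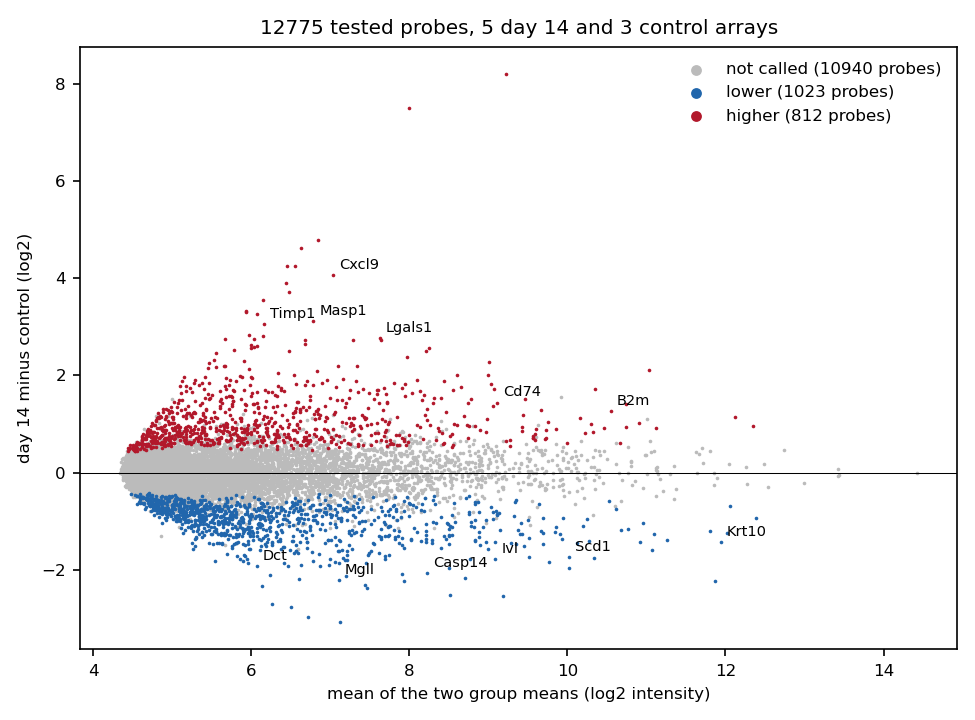
Each point is 1 of the 12775 tested probes, with the mean of both group means (log2 intensity) on the x axis and the log2 difference of day 14 from control on the y axis. Red points (812) were called higher and blue points (1023) lower. Rises reach beyond 4 on the log2 scale at several probes, and Cxcl9 is the highest probe with a gene symbol here.

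The 6 probes with the largest rises, 4.24 to 8.20, have no gene symbol in the table used here, nor do 12 of the 15 probes called higher by at least 8-fold. The gene table listed only probes detected on at least 10 of the 14 arrays. A probe detected at day 14 alone could not meet that limit, and the lists below cover only a share of their members. In tissue as a whole, fewer cells of a type and less RNA per cell cannot be told apart, and this holds for every result that follows.

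Detected probes numbered 10589, 13867, 13693, 9731 and 7059 on day 14 replicates 1 to 5, and 10659, 11772 and 11696 on the controls. The difference of means was -387.9 with an exact permutation p of 0.875 (two-sided), and it turned to 594.3 when day 14 replicate 5 was left out. In a principal component analysis of the 8 arrays, the first component held 53.4% of the variance. Controls lay between -41.5 and -31.5 on it, and day 14 replicates between -2.69 and 46.5, with replicate 2 nearest to control. The second component (21.3%) set replicate 5 apart, at 37.3. Without the array with the fewest detected probes at each tumour time, day 14 replicate 5 and day 4 replicate 2 (8257), 2054 probes were called. That setting was not planned beforehand, and day 4 replicate 6, with 8846 detected probes, stayed in.

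Interferon-inducible genes were higher, and Cxcl9 had the largest named rise. Of 16 listed interferon response genes, 6 were measured, and 4 of them were higher and none lower, with a median change of 2.18. The share of all genes called higher was 9.32%. Under median scaling 3 of the 6 were called. The chemokine Cxcl9, which draws activated T cells through the receptor CXCR3, read 4.93, 5.12 and 4.94 in control and 9.54, 8.46, 9.61, 9.59 and 8.11 at day 14. Every day 14 array stood far above every control array. The change was 4.07 ± 0.33 (SE), or 16.7-fold, with an adjusted p of 4.07e-07. Oasl2, an antiviral protein of the oligoadenylate synthetase family, read 5.25, 4.90 and 5.93 in control and 7.96, 7.26, 8.59, 8.66 and 7.56 at day 14. Its groups did not overlap, and it was 6.26-fold higher (2.65 ± 0.35, adjusted p = 7.11e-05). Rsad2, the antiviral enzyme viperin, changed by 1.71 ± 0.39 (adjusted p = 0.00636), and its day 14 values of 5.41 in replicate 2 and 5.25 in replicate 5 were the nearest to the control values of 4.30 to 4.79. Usp18, a negative regulator of type I interferon signalling, had a change of 0.88 and was not called.

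GTPases that act against intracellular pathogens were higher together. This family was drawn together after the values had been seen, so its count is a description. Of 7 measured members, 6 were higher: Igtp, Gbp2, Gbp2b, Irgm2, Gbp3 and Gvin1, with changes of 2.29 to 2.81. Igtp read 4.77, 4.67 and 4.81 in control and 7.54, 6.66, 8.18, 7.89 and 7.49 at day 14, a 6.99-fold difference (2.81 ± 0.25, adjusted p = 1.18e-06). Gbp2 read 6.23, 6.18 and 6.40 in control and 9.32, 8.04, 9.72, 9.69 and 8.27 at day 14, which is 6.67-fold higher (2.74 ± 0.31, adjusted p = 1.97e-05). In both genes the groups lay well apart, and Igtp had its lowest day 14 value in replicate 2, as did Gbp2. Probes for Irgm1 disagreed: its brightest was not called at 0.65, while another was higher by 2.14. All 3 measured Ifitm genes, membrane proteins that restrict virus entry, were higher as well (Ifitm3 2.01, Ifitm1 1.89, Ifitm2 1.33).

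Promoters of these genes were searched for the letters of interferon-responsive elements, because the members moved together. The window ran from 250 bases before to 50 bases after the annotated start (RefSeq, GRCm38.p6), and both strands were read. The letters GAAANNGAAA, after the interferon-stimulated response element, were found in 3.44% of 32851 promoters, TTCNNNGAA, after the gamma-activated site, in 8.3%, and CTGATTGG, after the Y box of MHC class II genes, in 4.1%. All 6 of the GTPase genes with a promoter sequence held GAAANNGAAA (Igtp, Gbp2, Gbp2b, Gbp3, Irgm1 and Irgm2), and 2 of them, Igtp and Irgm2, also held TTCNNNGAA. In the list of interferon response genes, 3 of 5 with a promoter held GAAANNGAAA, and neither Cxcl9 nor Oasl2 did. Of 4 class I genes with a promoter sequence, B2m held GAAANNGAAA, Psmb8 TTCNNNGAA, and H2-K1 and H2-D1 CTGATTGG. Of 3 class II genes, H2-Eb1 held CTGATTGG and none held GAAANNGAAA. None of the 7 keratinocyte markers with a promoter sequence held any of the 3 motifs. A match describes the letters only and is not a binding site shown here. The promoters of 5 genes called higher are printed 5′ to 3′ on the gene's strand, to show where these letters stand. They were picked because they hold a match, and motif letters stand in capitals on whichever strand they match. They are Igtp at chr11:58199306-58199605 (plus strand), Gbp2 at chr3:142620413-142620712 (plus), Rsad2 at chr12:26456403-26456702 (minus), B2m at chr2:122147437-122147736 (plus) and H2-Eb1 at chr17:34305617-34305916 (plus).
Igtp: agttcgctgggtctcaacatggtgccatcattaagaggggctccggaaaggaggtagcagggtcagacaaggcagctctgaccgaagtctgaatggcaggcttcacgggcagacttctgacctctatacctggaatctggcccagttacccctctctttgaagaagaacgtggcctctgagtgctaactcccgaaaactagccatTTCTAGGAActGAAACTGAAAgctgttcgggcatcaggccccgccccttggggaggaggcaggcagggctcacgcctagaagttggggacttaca
Gbp2: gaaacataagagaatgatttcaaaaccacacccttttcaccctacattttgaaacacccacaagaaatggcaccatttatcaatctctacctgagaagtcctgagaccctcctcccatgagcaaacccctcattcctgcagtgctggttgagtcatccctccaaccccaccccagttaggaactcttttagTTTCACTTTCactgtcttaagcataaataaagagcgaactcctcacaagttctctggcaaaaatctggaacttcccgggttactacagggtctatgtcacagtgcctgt
Rsad2: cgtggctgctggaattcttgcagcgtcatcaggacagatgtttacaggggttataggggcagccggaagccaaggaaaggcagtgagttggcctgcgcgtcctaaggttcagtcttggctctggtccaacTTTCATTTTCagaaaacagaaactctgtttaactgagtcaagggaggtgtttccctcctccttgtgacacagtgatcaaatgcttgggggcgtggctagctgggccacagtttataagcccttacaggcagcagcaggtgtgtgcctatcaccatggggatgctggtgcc
B2m: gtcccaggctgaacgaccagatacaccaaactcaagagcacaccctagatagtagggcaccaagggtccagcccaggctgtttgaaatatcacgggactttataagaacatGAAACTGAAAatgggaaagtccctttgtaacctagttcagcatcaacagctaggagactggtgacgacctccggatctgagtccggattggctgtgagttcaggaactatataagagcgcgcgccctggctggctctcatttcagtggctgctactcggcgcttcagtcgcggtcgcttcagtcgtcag
H2-Eb1: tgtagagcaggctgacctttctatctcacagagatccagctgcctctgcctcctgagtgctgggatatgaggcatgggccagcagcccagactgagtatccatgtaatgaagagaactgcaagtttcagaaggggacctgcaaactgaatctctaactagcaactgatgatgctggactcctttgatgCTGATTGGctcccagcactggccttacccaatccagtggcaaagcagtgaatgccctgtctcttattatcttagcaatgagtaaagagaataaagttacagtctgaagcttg
In Igtp the GAAANNGAAA match spans positions -34 to -25 from the start, with the TTCNNNGAA match just before it at -45 to -37. Irgm2 has the same pair at -64 to -55 and -75 to -67. In Gbp2 the match lies at -59 to -50, in Rsad2 at -120 to -111 and in B2m at -139 to -130. The CTGATTGG letters of H2-Eb1 lie at -62 to -55.

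Antigen presentation genes were higher for both MHC classes. Of 9 listed class I pathway genes, 6 were measured and 5 were higher, with a median change of 1.28, against 9.32% of all genes higher. Under median scaling only Psmb8 kept its call. B2m, the invariant light chain of class I molecules, read 9.71, 10.32 and 9.72 in control and 11.29, 10.92, 11.44, 11.77 and 10.48 at day 14. Its lowest day 14 value, in replicate 5, stood just above the highest control value, and the change was 1.26 ± 0.24 (adjusted p = 0.00167). Psmb8, an immunoproteasome subunit, read 4.67, 4.57 and 4.43 in control and 6.35, 5.44, 6.33, 5.57 and 6.48 at day 14 (1.48 ± 0.24, adjusted p = 0.000469). The groups did not overlap. Tap2, a subunit of the peptide transporter, changed by 1.30 and the heavy chain H2-K1 by 1.31, both called. Tap2 lost its call in 4 of 20 alternatives, 1 of them leaving out control replicate 1. Nlrc5, the class I transactivator, had a change of 0.59 and was not called. Among proteasome core subunits, a family drawn after values were seen, the 2 largest rises were those of the immunoproteasome subunits Psmb10 (2.04) and Psmb8. Psma5 (0.53) was the only other of 12 measured that was called.

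All 5 measured class II genes of 7 listed were higher, with a median of 1.46, and none was called under median scaling. H2-Eb1, a class II beta chain, read 6.93, 7.87 and 7.83 in control and 9.69, 8.32, 9.59, 9.29 and 8.56 at day 14 (1.54 ± 0.32, adjusted p = 0.00329). Cd74, the invariant chain, read 7.88, 8.62 and 8.67 in control and 10.10, 9.50, 10.30, 9.84 and 9.43 at day 14 (1.44 ± 0.27, adjusted p = 0.00134). Neither gene's groups overlapped, and control replicate 1 was the lowest array for both. Of the 2 other tested probes of Cd74, only 1 had the same call. The peptide-loading chaperone chains H2-DMa (1.13) and H2-DMb1 (1.52) rose with them. Over all 14 measured H2 genes, a family drawn after values were seen, 12 were higher, and H2-Q7 (0.04) and H2-M2 (-0.36) were not called. None of the 14 was called under median scaling. H2 genes are close copies of one another, so a probe may read more than 1 of them. Cd274, which encodes the checkpoint ligand PD-L1, read 5.79, 6.33 and 5.83 in control and 7.43, 6.81, 7.76, 7.74 and 6.91 at day 14. It was 2.55-fold higher without overlap (1.35 ± 0.24, adjusted p = 0.000932), a call lost under median scaling.

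**Figure D2:**
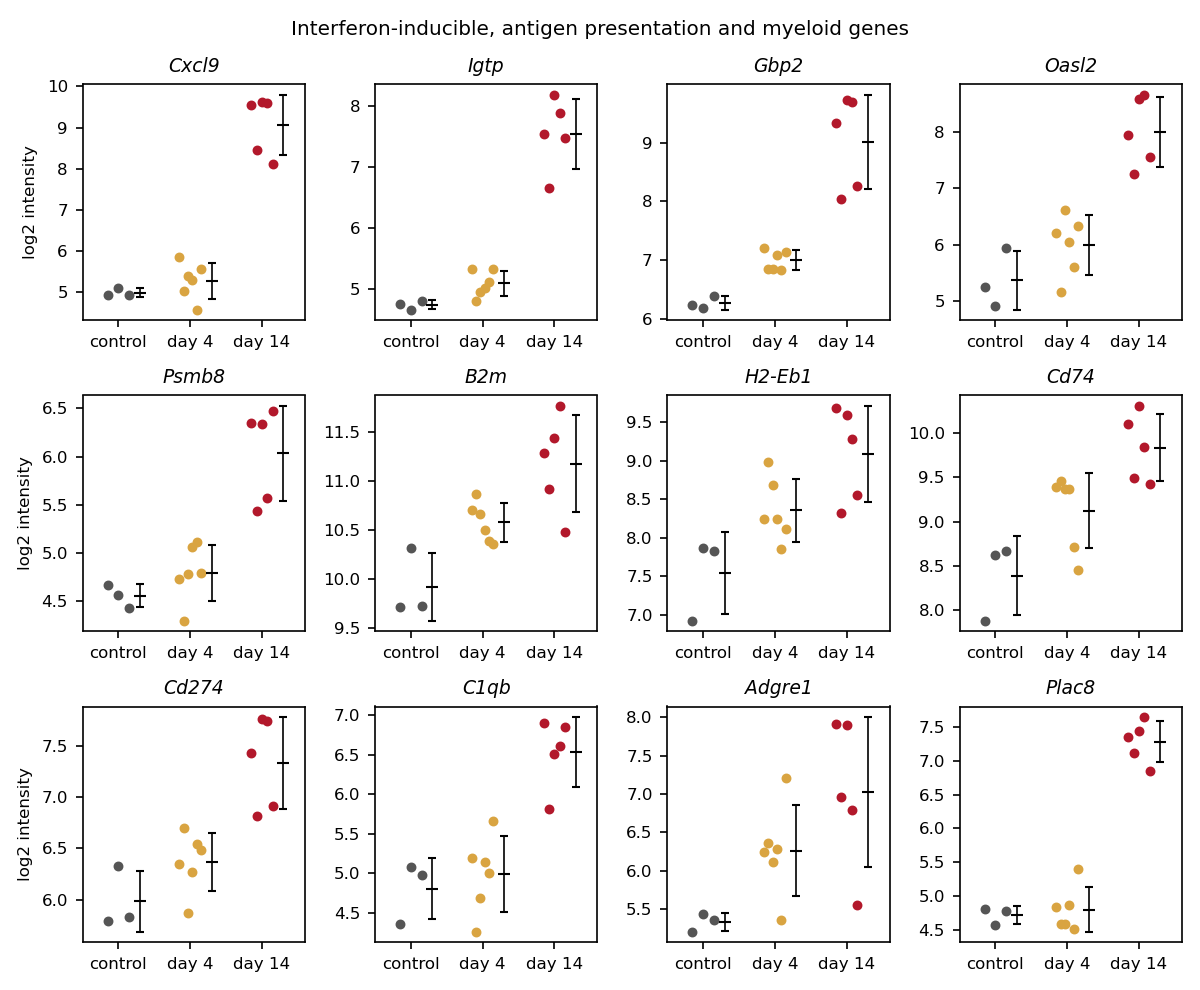
Each panel shows 1 gene, with log2 intensity on the y axis, 1 point per array (3 control, 6 day 4, 5 day 14) and the mean with its SD beside the points. For Cxcl9, Igtp and Plac8 the day 14 arrays stand above all other arrays, while Adgre1 ranges from 5.55 to 7.92 at day 14.

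Markers of myeloid cells were partly higher. Of 8 measured macrophage markers of 13 listed, 4 were higher and none lower (median 0.64), against 9.32% of all genes higher. Under median scaling only C1qb kept its call. The complement components C1qb (1.73 ± 0.29, adjusted p = 0.000554) and C1qc (1.18 ± 0.23, adjusted p = 0.00183), made largely by macrophages, did not overlap between groups. Adgre1, which encodes a surface protein of mature macrophages, read 5.20, 5.43 and 5.36 in control and 7.92, 6.96, 7.91, 6.79 and 5.55 at day 14. Its day 14 values spread widely, and replicate 5 lay close to control (1.69 ± 0.43, adjusted p = 0.0125). Without control replicate 1 it was no longer called. Csf1r, the receptor for the macrophage growth factor CSF1, changed by 0.62 (adjusted p = 0.0306) and lost its call in 8 of 20 alternatives. Mrc1 (0.66), Cd163 (-0.22), Apoe (0.19) and Arg1 (-0.10) were not called. The only measured monocyte marker, Plac8, read 4.81, 4.57 and 4.78 in control and 7.35, 7.12, 7.44, 7.64 and 6.85 at day 14, 5.89-fold higher without overlap (adjusted p = 4.07e-07). Ms4a6d, a membrane protein of the MS4A family, was 6.61-fold higher (2.72 ± 0.23, adjusted p = 5.75e-07). The Fc gamma receptors Fcgr3 (1.65) and Fcgr2b (1.35), which bind IgG on myeloid cells, were higher too, as a pair drawn after values were seen.

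Lymphocyte markers were sparsely covered. Among 3 measured T cell markers of 13, Cd3e, a chain of the T cell receptor complex, was higher. It read 4.67, 4.79 and 4.65 in control and 5.98, 5.18, 6.12, 5.78 and 5.16 at day 14 (0.94 ± 0.25, adjusted p = 0.0164). The groups did not overlap, but the call was lost without control replicate 1 or without control replicate 3. Cd247 (0.54) and Cd8b1 (-0.09) were not called, nor were the regulatory T cell factor Foxp3 (-0.39, adjusted p = 0.207) and the cytotoxic gene Prf1 (-0.51). No B cell or NK cell marker was measured, and Ptprc and Cd8a were not analysed here. Siglech, a marker of plasmacytoid dendritic cells, was called higher at 1.71 ± 0.45 (adjusted p = 0.0151) although day 14 replicate 2 (6.20) met the highest control value. That call was lost without control replicate 1 or without control replicate 2. Ltf, the neutrophil granule protein lactoferrin and the only measured neutrophil marker, was lower by contrast (-1.33 ± 0.33, adjusted p = 0.011). The mast cell protease Cpa3 (-0.20) and the plasma cell factor Xbp1 (-0.07) were not called.

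Among secreted mediators, 2 of 5 measured chemokines were higher, Cxcl9 and the monocyte attractant Ccl8, against 9.32% of all genes. Ccl8 read 6.02, 6.26 and 5.74 in control and 7.85, 7.42, 8.30, 7.97 and 8.02 at day 14, a 3.75-fold difference without overlap (adjusted p = 1.62e-05). Ccl11 (0.45), Cxcl12 (-0.56) and Cxcl14 (-0.21) were not called. Of 3 measured genes of the inflammatory cytokine list, Il33, an alarmin released by stromal and epithelial cells, was higher by 0.86 ± 0.20 (adjusted p = 0.00785). Csf1 (0.34) and Il1rn (-0.70) were not called, although all day 14 values of Il1rn lay below control. Of 6 measured complement genes of 11, C1qb, C1qc and C2 were higher (median 0.80), and C1qb alone kept its call under median scaling. Masp1, a protease of the lectin pathway of complement that stood outside that list, had the second largest named rise, 8.67-fold (3.12 ± 0.25, adjusted p = 4.07e-07). It read 5.07, 5.02 and 5.58 in control and 8.57, 7.56, 8.58, 8.36 and 8.63 at day 14.

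Matrix genes changed unevenly. Of 12 measured matrix remodelling genes of 20, 5 were higher and none lower (median 0.51), against 9.32% of all genes higher. Under median scaling 2 of the 12 were called, Timp1 and Lox. Timp1, an inhibitor of matrix metalloproteinases, read 4.92, 4.53 and 4.45 in control and 7.91, 7.26, 7.07, 7.82 and 8.40 at day 14, 8.34-fold higher without overlap (3.06 ± 0.25, adjusted p = 4.07e-07). Lox, which cross-links collagen and elastin, was 3.88-fold higher (1.95 ± 0.32, adjusted p = 0.000469). Col6a1, a chain of microfibrillar collagen VI, read 7.55, 8.23 and 8.58 in control and 10.36, 9.12, 10.03, 9.94 and 10.22 at day 14 (1.81 ± 0.31, adjusted p = 0.000661). Fibronectin, Fn1, rose by 0.83, and Col5a1 by 0.94 (adjusted p = 0.0413), a call lost in 10 of 20 alternatives. The fibrillar collagen genes Col1a1 (-0.33, adjusted p = 0.409), Col1a2 (0.62) and Col3a1 (0.40) were not called. Galectin-1, Lgals1, a secreted lectin, was 6.84-fold higher (2.77 ± 0.30, adjusted p = 1.01e-05) and the adhesion protein gene Amigo2 6.68-fold higher (2.74 ± 0.24, adjusted p = 1.21e-06).

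Of 9 measured fibroblast markers, only Pdgfra, a receptor for platelet-derived growth factor, was called. It read 6.32, 7.26 and 6.78 in control and 8.75, 8.34, 8.38, 8.52 and 8.04 at day 14 (1.62 ± 0.21, adjusted p = 5.41e-05). Its call was lost under median scaling. The list's median was -0.09, close to that of all genes. Of 2 measured pericyte markers, Acta2, the smooth muscle actin of mural cells, was lower (-0.94 ± 0.22, adjusted p = 0.00761), and Des (0.34) was not called. None of 5 measured endothelial markers was called (median 0.03). Of 10 mesothelial markers only Pdpn was measured (0.54, not called), and Msln and Wt1 were not analysed here. Mesothelial genes therefore give no measure of AB1 cells here.

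A few proliferation and glycolysis genes were higher. Of 6 measured cell cycle genes of 20, Birc5 (0.94, adjusted p = 0.0397), Mcm5 (0.92, adjusted p = 0.037) and Top2a (0.70, adjusted p = 0.046) were higher, and their calls were lost in 11, 9 and 13 of 20 alternatives. Of 8 measured glycolysis genes, Pkm (0.88 ± 0.15, adjusted p = 0.000899) and Pfkl (0.72, adjusted p = 0.037) were higher, the second losing its call in 9 alternatives. Aldoa (0.02) and Slc2a1 (-0.20) were among the 6 glycolysis genes not called, and no cell cycle gene was called with a replicate block. The hypoxia list (5 measured, Vegfa at 0.25 among them) and the oxidative phosphorylation list (10 measured) had no called gene.

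Epidermal genes were lower as a group. Of 9 measured keratinocyte markers, 8 were lower and none higher, with a median change of -1.24, while 9.8% of all genes were lower. Krt10, the keratin of suprabasal cells, read 11.84, 13.18 and 12.94 in control and 11.57, 11.74, 10.96, 11.44 and 10.41 at day 14 (-1.43 ± 0.31, adjusted p = 0.00377). The groups did not overlap, with control replicate 1 nearest to day 14. Krt15, a keratin of basal and hair follicle cells, read 7.68, 8.31 and 7.66 in control and 5.81, 7.03, 5.84, 5.94 and 5.92 at day 14, 3.43-fold lower (adjusted p = 0.00013). Involucrin, Ivl, a cornified envelope protein, read between 9.76 and 10.17 in control and 6.95, 8.63, 8.66, 8.11 and 8.61 at day 14. It was 3.44-fold lower without overlap (-1.78 ± 0.36, adjusted p = 0.00239).

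The transcription factor Trp63, which maintains stratified epithelium, read 8.41, 8.92 and 8.45 in control and 6.37, 7.76, 6.57, 6.77 and 7.01 at day 14 (-1.70 ± 0.24, adjusted p = 0.000154). Zfp750 (-1.93, adjusted p = 0.000795) and Dlx3 (-1.81, adjusted p = 0.000642), factors of epidermal differentiation, were lower too. The caspase of cornification, Casp14, was 4.22-fold lower (-2.08 ± 0.39, adjusted p = 0.00149). Krt14 (-0.68, adjusted p = 0.0291) was called with overlapping groups and lost its call in 9 of 20 alternatives, while Krt5 (-0.22) was not called. All 3 measured epithelial markers were lower: Cdh1, the adherens junction protein E-cadherin (-1.79 ± 0.25, adjusted p = 0.000129), the splicing factor Esrp1 (-1.45) and Cldn4 (-0.96). None of these 3 was called under median scaling.

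Other barrier families, drawn after values were seen, contained calls in the same direction only. Keratins were lower for 7 of 9 measured, cornified envelope genes of the Sprr and Lce groups for 4 of 9, desmosome and plakin genes for 5 of 7, and claudins and connexins for 6 of 8. By comparison, 9.8% of all genes were lower. Under median scaling 1 of the claudins and connexins was called, and no gene of the other families. The connexin genes Gjb2 (-1.74) and Gjb6 (-1.62) and the claudin gene Cldn1 (-1.48) were the most lowered of the claudins and connexins. In contrast with the chains named above, the collagen gene Col17a1, which anchors basal keratinocytes, was lower (-1.19). Dct, an enzyme of melanin synthesis and the only measured melanocyte marker, read 7.75, 7.29 and 6.05 in control and 4.46, 5.05, 5.97, 4.86 and 5.17 at day 14. The groups came close without overlapping (-1.93 ± 0.38, adjusted p = 0.00205).

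**Figure D3:**
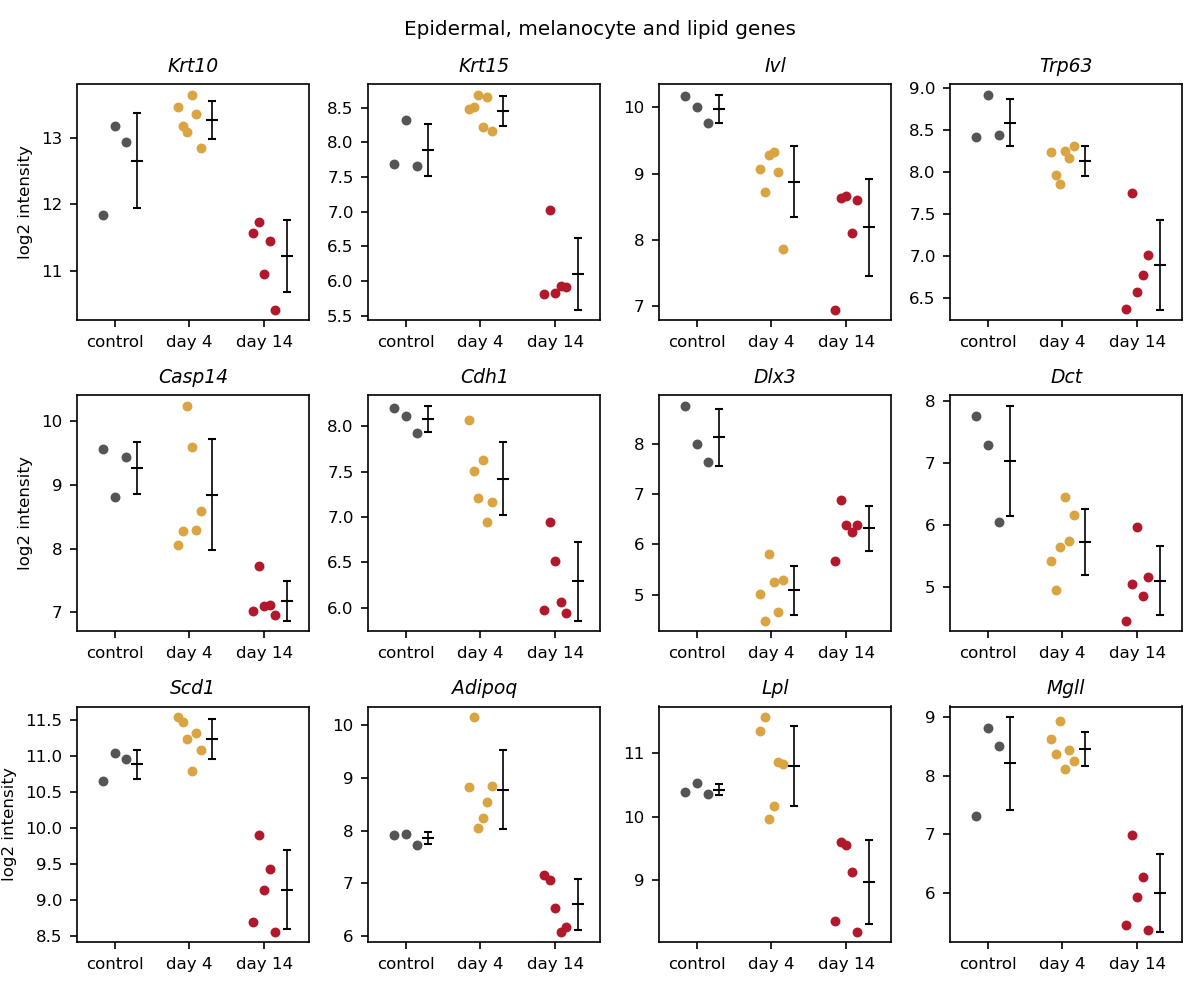
Panels are as for the immune genes: log2 intensity per array with group mean and SD, for epidermal, melanocyte and lipid genes in control (3), day 4 (6) and day 14 (5). Every day 14 array of these 12 genes stands below every control array, and Casp14, Dlx3, Dct and Mgll were picked by a rule that required this. Dlx3 is lower at day 4 (mean 5.08) than at day 14 (mean 6.31).

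Lipid genes were lower as well. Of 4 measured adipocyte markers, 3 were lower (median -1.02), and of 6 measured fatty acid genes, 4 were lower (median -0.86). By comparison, 9.8% of all genes were lower. Neither list had a call under median scaling, and with a replicate block 1 adipocyte marker was called. Scd1, which makes monounsaturated fatty acids, read 10.66, 11.05 and 10.96 in control and 8.69, 9.90, 9.15, 9.43 and 8.56 at day 14 (-1.74 ± 0.25, adjusted p = 0.000192). Mgll, the lipase that hydrolyses monoglycerides, had the largest named fall: it read 7.31, 8.81 and 8.50 in control and 5.45, 6.99, 5.92, 6.27 and 5.37 at day 14, 4.62-fold lower (-2.21 ± 0.35, adjusted p = 0.000345). Neither gene's groups overlapped. The elongase Elovl6 (-1.30), the triglyceride enzyme Dgat2 (-1.01) and the citrate lyase Acly (-0.71) were lower. The call of Elovl6 was lost without control replicate 2 or 3, and that of Acly without control replicate 1 or 2. Lipoprotein lipase, Lpl, was lower by 1.46 ± 0.36 (adjusted p = 0.0103), and the adipokine gene Adipoq by 1.25 ± 0.36 (adjusted p = 0.0244), a call lost in 9 of 20 alternatives. Leptin, Lep (-0.79), was not called.

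Several genes best known from liver were also among the largest falls. They were the cytochrome Cyp2e1 (-1.86, adjusted p = 0.000643), the carboxylesterase Ces1d (-1.84, adjusted p = 0.00029) and the major urinary protein Mup6 (-1.86, adjusted p = 0.00138). Mup2 was lower too (-1.52), and near-identical Mup genes may share probes. Ces1d is also known from white fat, where it acts as a triglyceride hydrolase. Of the remaining 10 largest falls, the transcription factor genes Mycl (-1.87 ± 0.21, adjusted p = 1.97e-05) and Irx2 (-1.86 ± 0.19, adjusted p = 7.75e-06) had the smallest adjusted p-values. None of the 10 largest named falls was called under median scaling.

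**Figure D4:**
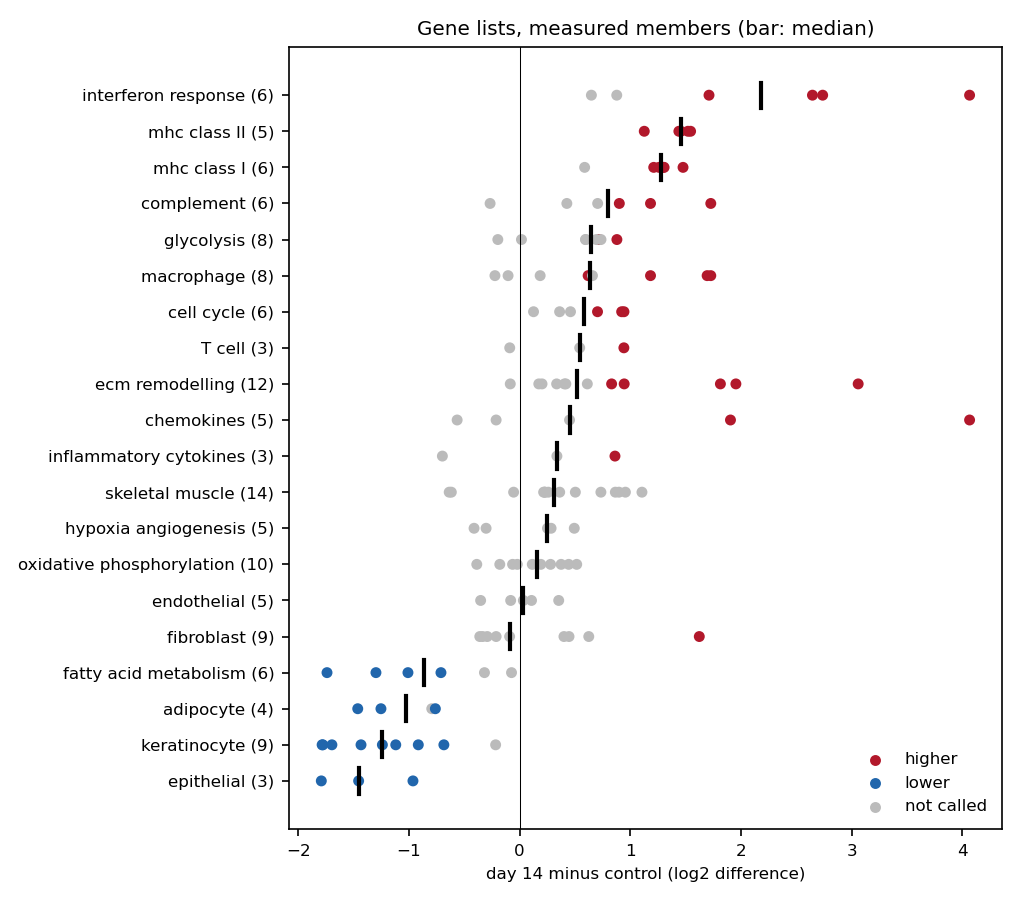
Each row is a gene list with at least 3 measured members, the number measured in parentheses and the log2 difference of day 14 from control on the x axis. Points are genes, red if called higher, blue if called lower and grey if not called, and the bar is the list's median, from -1.45 for the epithelial to 2.18 for the interferon response list.

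Muscle transcripts spread widely within the day 14 group. None of 14 measured skeletal muscle markers was called, with a median change of 0.31. Their mean level was 8.32, 8.02 and 7.32 in control and 7.47, 9.60, 9.37, 8.20 and 6.59 at day 14, so day 14 replicates 2 and 3 held the most and replicate 5 the least. Without day 14 replicate 2 the median was -0.02. Without day 14 replicate 5 it was 0.85 with 1 gene called higher, and without day 4 replicate 2 as well it was 0.84 with 2 called. Array weights also gave 2 calls (median 0.70). Replicate 2 was also the day 14 array with the highest mean keratinocyte level, 8.92 against 8.14 to 8.37 on the others, and the lowest mean class II level, 7.12 against 7.57 to 8.25. The mean interferon response level was lowest in replicates 2 and 5 (7.46 and 7.33), and 8.33 to 8.60 in the others. Whether tissue make-up contributed to the gene changes was not tested.

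**Figure D5:**
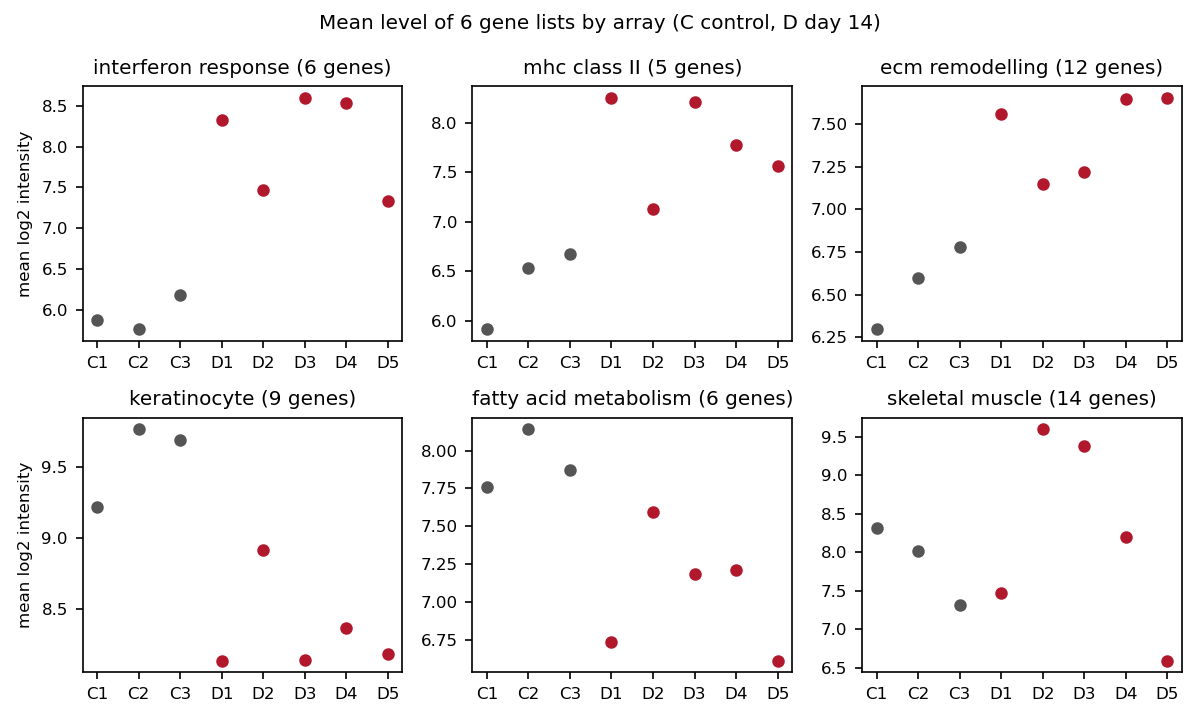
Each panel gives the mean log2 intensity of a list's measured genes on each array, C1 to C3 for control and D1 to D5 for day 14. The interferon, class II and matrix lists are higher on every day 14 array than on any control array and the keratinocyte and fatty acid lists lower, while the muscle list ranges from 6.59 to 9.60 within day 14.

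Day 4 served to ask whether these differences were larger at day 14, by a test of day 14 minus day 4 in the same fit. Over all 5033 genes, 27.7% were called in that test. Both tests use the same day 14 arrays and the named genes were picked from the first. A count over the named genes is therefore no independent evidence. Cxcl9 was 3.78 above its day 4 mean of 5.29. Of 469 genes higher than control, 324 were higher at day 14 than at day 4 too, and 2 were lower. Of 493 genes lower than control, 337 were lower at day 14 than at day 4 too, and 21 were higher. These genes were also picked by the first test, so their counts are no independent evidence. Dlx3 was 1 of the 21 (1.23 ± 0.25, adjusted p = 0.00166). So were the connexin genes Gjb2, whose mean level was 5.24 at day 4, 8.65 at day 14 and 10.38 in control, and Gjb6, with 4.73, 6.29 and 7.91. Sprr1a (6.69, 8.15 and 9.64) and the hair follicle keratin gene Krt27 (5.27, 11.2 and 12.41) had the same order of means. For class II genes the difference from day 4 did not pass the test for H2-Eb1 (0.73, adjusted p = 0.0643), H2-Ab1 (0.59, adjusted p = 0.133) and H2-DMb1 (0.46, adjusted p = 0.133), and it did for Cd74 (0.71, adjusted p = 0.0298).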

How the data were processed

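The authors deposited 1 table of non-normalized probe intensity values on a linear scale together with detection p-values, per the file headers. Which software exported them, and each array's slide and scan, is not given in the sources used here. A second deposited table held the authors' log2 values for 7016 probes and was used as an alternative. It matched the first array by array, except that control replicates 1 and 2 were exchanged between both tables (r = 0.999 with the other's label, 0.97 with their own), which touches only those replicate numbers.

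Intensities were background-corrected by normexp (offset 16), its negative controls taken from the detection p-values, quantile-normalized and log2-transformed (limma 3.58.1, R 4.3.3). The offset compresses changes of dim probes. A model of all 3 groups was fitted to 14 arrays with lmFit and eBayes, so that the control group, with 3 arrays, shared 1 estimate of the spread. Tests were two-sided, with Benjamini-Hochberg adjustment over the 12775 tested probes. The fit was tested on simulated data.

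Symbols came from GEO's platform annotation, and 3 tested probes with several genes and 6689 unlisted probes stayed unnamed. Of 5033 genes, 5026 matched RefSeq's gene table. Named genes were the 10 largest rises and falls called without overlap, up to 4 called members per list and a short fixed list, 71 in all. The comparison, members and lists were chosen with earlier results of these data known. Gene families were drawn after values were seen. The labels do not say whether equal replicate numbers link samples of different groups. Deviations of same-numbered control and day 14 arrays correlated at -0.159, -0.161 and 0.149. For same-numbered pairs with a day 4 array the correlations ran from -0.288 to 0.242. So few arrays cannot exclude a shared batch. The number of arrays limits the precision.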

Additional observations from a re-analysis of the deposited data

Results flagged for a closer look

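A single day 14 array stood apart from the other 4 in 5 of 92 measures examined, where chance gives about 1 in 20. Day 14 replicate 2 was the array in 4 of these. It was the lowest for Masp1 (7.56, nearest other 8.36) and the highest for Casp14 (7.73, nearest other 7.12), Krt15 (7.03, nearest other 5.94) and Dgat2 (5.58, nearest other 4.98), in each case the value nearest to control. Day 14 replicate 1 was the lowest for Mycl (5.44, nearest other 6.21).

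For 55 of the 71 named genes the difference from control changed between both tumour times in limma's test of day 14 minus day 4 (adjusted p under 0.05), which called 27.7% of all 5033 genes. The genes were picked from a comparison with the same day 14 arrays, so their count is no independent evidence. The values that follow are that log2 difference. Among genes higher than control, those that differed most were Cxcl9 (3.78), Timp1 (2.71), Lgals1 (2.61), Masp1 (2.53), Plac8 (2.48), Igtp (2.46), Amigo2 (2.37), Gbp2b (2.19), Oasl2 (2.02) and Gbp2 (2.01). Differences between 1 and 2 were found for Ms4a6d (1.77), Lox (1.77), C1qb (1.54), Ccl8 (1.44), Pdgfra (1.29), Psmb8 (1.24), Siglech (1.23), Rsad2 (1.20), C1qc (1.15) and Tap2 (1.14). Smaller ones were those of Cd274 (0.97), Birc5 (0.92), Top2a (0.76), Mcm5 (0.74), Col6a1 (0.74), Cd74 (0.71), H2-K1 (0.68), Cd3e (0.65), B2m (0.60) and Il33 (0.56).

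Among genes lower than control, the largest differences were those of Cyp2e1 (-2.78), Ces1d (-2.56), Mgll (-2.46), Krt15 (-2.34), Adipoq (-2.17), Scd1 (-2.09) and Krt10 (-2.04). Intermediate differences were those of Mup6 (-1.92), Lpl (-1.83), Casp14 (-1.65), Dgat2 (-1.51), Elovl6 (-1.49), Pnpla2 (-1.40), Esrp1 (-1.30), Zfp750 (-1.27), Trp63 (-1.24), Cdh1 (-1.13) and Irx2 (-1.06), and the smallest those of Acly (-0.83), Acta2 (-0.82), Mycl (-0.80) and Krt14 (-0.75). Dlx3 was lower than control at both times and higher at day 14 than at day 4 (1.23). The collagen gene Col1a1 (-1.11) and the muscle creatine kinase gene Ckm (-1.41) differed between both times without being called at day 14 against control.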

How the results depend on the processing

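Of 20 alternatives, median scaling moved the most: 210 probes were called in place of 1835, 163 higher and 47 lower, and 209 of them were also called in the chosen setting. Without a filter on dim probes 1154 were called, at an adjusted p under 0.01 956 were, and with a minimum change of 2-fold 737 were. Leaving out 1 array at a time gave 1110 (without control replicate 1) to 2048 (without day 14 replicate 2). With a replicate block 1309 probes were called, and whether equal numbers link the samples is not known. The difference in detected probes per array ranged from -1108 to 594.3 when 1 array was left out, and 594.3, without day 14 replicate 5, is the only value above 0. The other alternatives stayed within 1.5 times of the chosen count. No called named gene changed sign in any alternative, and 17 of 66 were still called under median scaling. Among these 17, Ltf alone was lower than control. Causes were not tested. Limits: 3 control arrays, named probes biased to those widely detected, and an unstated control tissue.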

Other observations

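Ribosomal protein genes and the erythroid and Schwann cell marker lists are given here, as they were not described above. Of 49 measured ribosomal protein genes, 2 were higher, Rpl38 (0.91) and Rps12 (0.60), and none lower, while 9.32% of all genes were higher. None of the 49 was called with a replicate block or under median scaling. The haemoglobin gene Hba-a1, the only measured erythroid marker, had a change of 0.25 and was not called. The Schwann cell markers Mbp (0.03) and Pmp22 (-0.73) were not called either, although all day 14 values of Pmp22 lay below control.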
